A study of Mus musculus with 9 samples.

Results

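Collagens, laminins and the other genes of the cardiac extracellular matrix were described in RNA-seq data from mouse hearts at E10.5 in which the gene for the chromatin organizer CTCF had been deleted. The set was chosen by gene name: numbered collagens, laminin chains, fibulins, fibrillins, nidogens, hyaluronan link proteins and hyaluronan synthases, together with *Vcan*, *Fn1*, *Eln*, *Postn*, *Tnc*, *Hspg2*, *Sparc*, *Dcn*, *Lum* and *Bgn*. Of 79 annotated genes with such a name, 64 were among the 14011 genes of the deposited table and 15 were not in it, among them *Col4a3*, *Col4a4*, *Col10a1* and *Has1*. All genes of the table reached a value of 1 in 3 libraries or more, so the 64 are those that passed a filter on low values. The 64 fell into 9 fibrillar collagens, 8 basement membrane and network collagens, 4 beaded filament and anchoring collagens, 10 fibril-associated (FACIT) and transmembrane collagens, 11 laminin chains, 3 basement membrane linkers, 7 elastic fiber genes, 5 hyaluronan matrix genes, 4 fibronectin and matricellular genes and 3 small leucine-rich proteoglycans.

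At this stage the heart has looped and its chambers are forming, and myocardium is lined by endocardium with a gelatinous matrix called cardiac jelly between them. Cardiac jelly is rich in hyaluronan, a sugar chain spun by hyaluronan synthase, and in versican, a large proteoglycan held on hyaluronan by link protein. In the cushions of the atrioventricular canal and outflow tract this matrix is invaded by mesenchymal cells that later build valves and septa. Under each cell layer lies a basement membrane made of laminin and collagen IV networks that nidogen and perlecan join. Fibrillar collagens, fibronectin, tenascin C, periostin, fibrillins and fibulins fill the space between cells and bind growth factors and receptors.

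Genotypes were compared to see which genes differed with the number of working *Ctcf* alleles. Controls were embryos without Cre, given as *Ctcf* fl/fl by the labels and as *Ctcf* fl/+ by the study. Heterozygotes were *Ctcf* fl/+; *Nkx2.5-Cre*/+ and homozygotes were *Ctcf* fl/fl; *Nkx2.5-Cre*/+, all of a mixed background, with 3 libraries of 6 pooled hearts each per genotype. All groups carried at least 1 floxed allele, and the driver was absent from controls only, so a difference from controls includes the driver. *Nkx2.5-Cre* acts in cardiac progenitors and what they give rise to, and the study still saw CTCF protein in the endocardium of mutants, so whole hearts mix cells with and without the deletion. In such bulk RNA, fewer cells of a type and less RNA per cell cannot be told apart.

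*Ctcf* itself checked the labels: its normalized value in homozygotes was 67.0% of the control mean and in heterozygotes 80.1%. Library totals ran from 4294537 to 11629365 reads, and 1 read was worth between 0.0901 and 0.231 units of normalized value. Among the libraries, control library 1 stood apart by its visceral endoderm and liver markers (summed value 1079 against 64.8 and 76.7 in the other controls). These sums were 21.9, 16.9 and 13.4 in heterozygotes, all below the controls, and 75.2, 12.5 and 82.9 in homozygotes. Libraries are numbered here as their columns are. Over all 14011 genes, 7.19% were called higher and 8.03% lower in homozygotes than in controls, and 6.87% and 6.7% against heterozygotes. A gene was called where limma's adjusted p was under 0.05.

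Matrix genes leaned toward lower values in homozygotes. Of the 64, 13 (20.3%) were called lower and 2 (3.125%) higher than in controls, and 15 (23.4%) were lower and 1 (1.56%) higher than in heterozygotes. Genes lower in both comparisons included *Tnc*, *Lama2*, *Col2a1*, *Col22a1*, *Vcan*, *Postn*, *Col13a1* and *Fbn2*. *Dcn* was higher in both. Both comparisons use the same homozygous libraries. The median log2 fold change of the 64 was -0.22 against controls, with 50 of 64 below 0, and -0.19 against heterozygotes, with 48 below 0. Over all genes the medians were close to 0 (-0.0011 and -0.0045). In 21 genes (32.8%) all homozygotes lay below all controls, where 16.5% of all genes did so, and in 16 (25%) below all heterozygotes, where 15.5% did. In 5 genes all homozygotes lay above all controls and in 2 above all heterozygotes, where 16.6% and 15.3% of all genes did so.

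**Figure D1:**
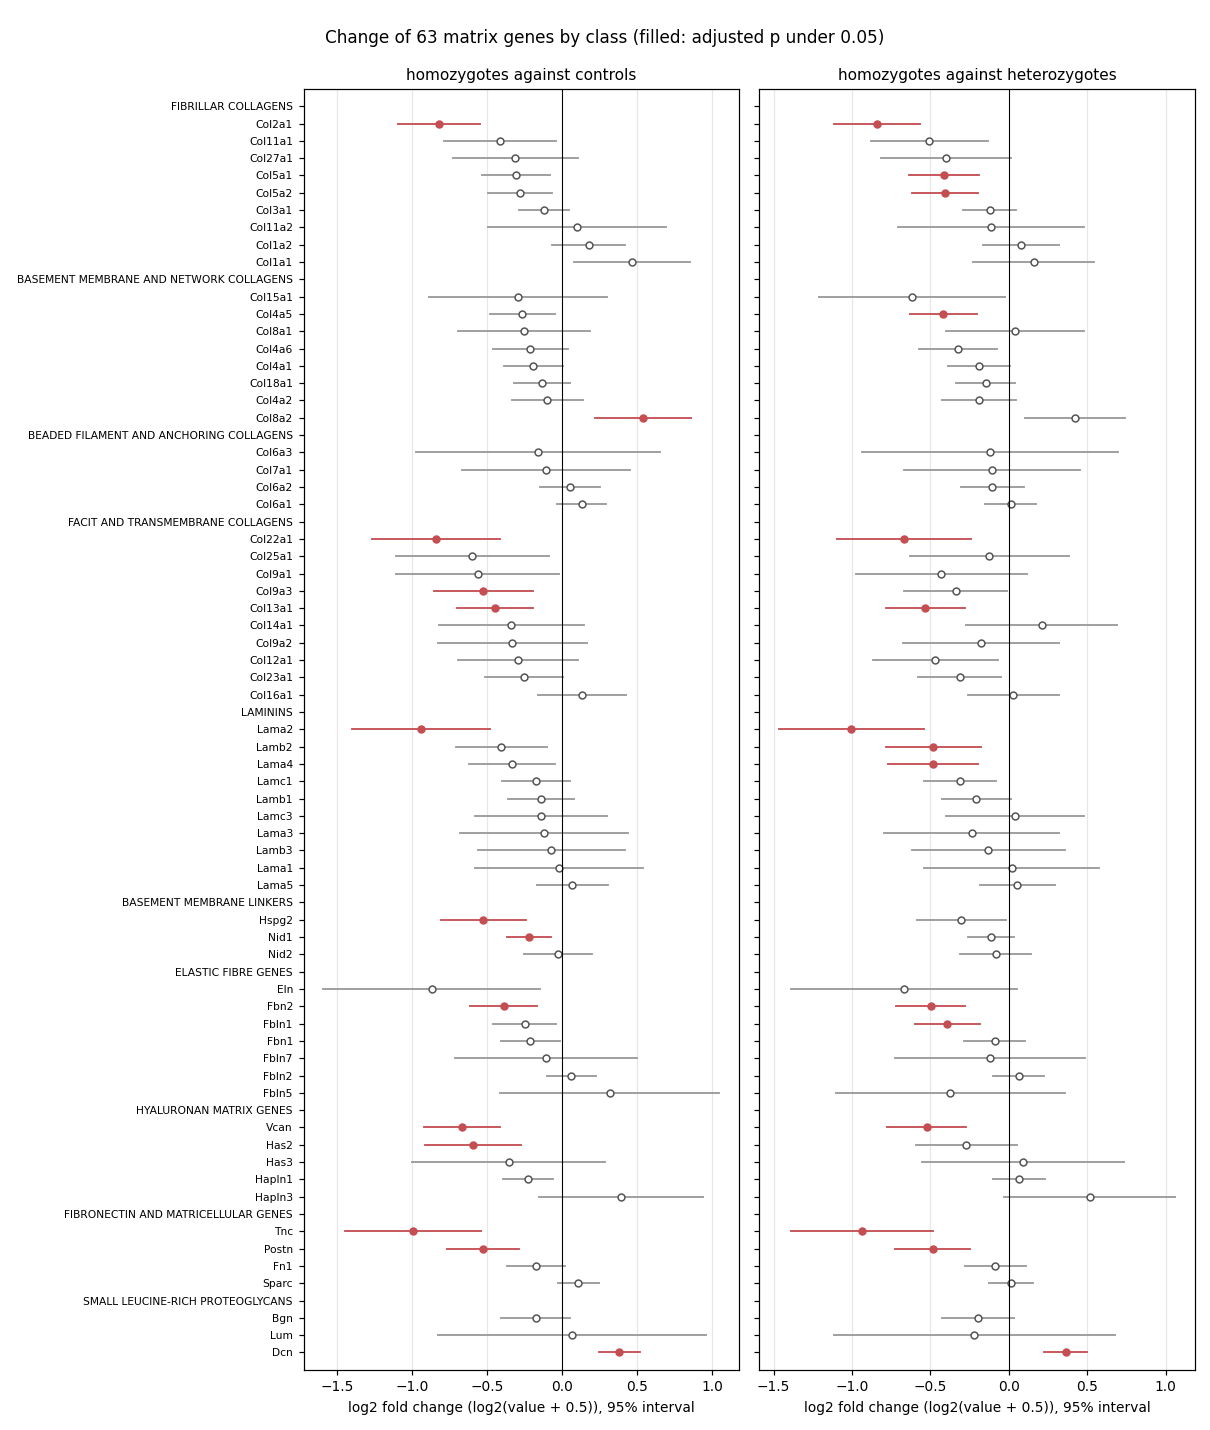
Log2 fold change of 63 of the 64 matrix genes with its 95% confidence interval, for homozygotes against controls on the left and against heterozygotes on the right, grouped by class. Filled symbols mark an adjusted p under 0.05, and most of them lie left of 0, with *Dcn* and *Col8a2* to the right on the left panel and *Dcn* alone on the right panel.

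Matrix genes are long, and the values of all genes shifted with length. Their median exonic length was 6734.5 bp (from 1937 to 15228 bp) against 3669 bp for all genes. When all genes were sorted by length, the 1398 longest had a median log2 fold change of -0.16 and the 1398 shortest one of 0.17 in homozygotes against controls, and -0.11 and 0.14 against heterozygotes. Among the 2316 genes at least as long as the median matrix gene, 20.7% were called lower and 2.2% higher against controls, and 12.5% and 2.98% against heterozygotes. Of the 32 matrix genes in that length range, 7 (21.9%) and 9 (28.1%) were called lower. The 32 shorter matrix genes had 6 called lower in each comparison (18.8%), beside 5.51% and 5.54% of all shorter genes. With the trend on length taken out of each library, 10 (15.6%) and 11 (17.2%) of the 64 were called lower, beside 4.96% and 5.29% of all genes, with 2 and 1 called higher beside 6.01% and 5.88%, and the medians were -0.12 and -0.13. The part of length in these counts was not tested further.

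**Figure D2:**
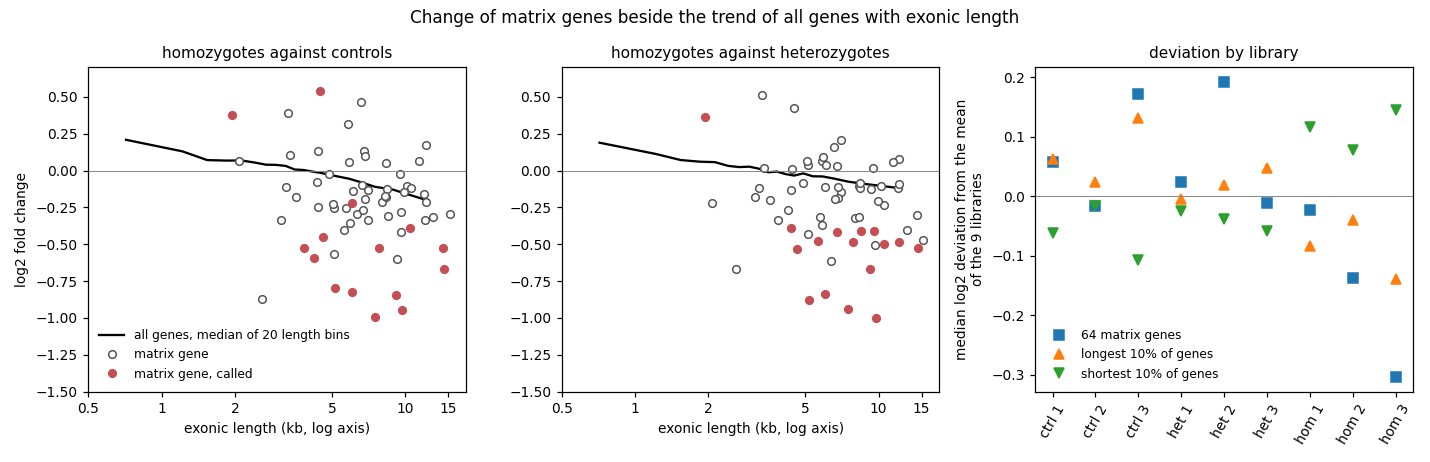
Log2 fold change of each matrix gene against its exonic length on a log axis, for homozygotes against controls (left) and heterozygotes (middle), with the median of all genes in 20 length bins as a line. The right panel gives the median log2 deviation from the mean of the 9 libraries for the 64 matrix genes and for the longest and shortest 10% of all genes; the matrix genes sit at -0.30 in homozygote library 3 and at 0.17 in control library 3.

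Individual libraries moved these counts. The matrix genes as a set were lowest in homozygote library 3, the most deeply sequenced (median deviation -0.30 on the log2 scale), followed by homozygote libraries 2 (-0.14) and 1 (-0.02), and were highest in heterozygote library 2 (0.19) and control library 3 (0.17). Without homozygote library 3 the genes called lower numbered 6 against controls and 7 against heterozygotes. Over all 14011 genes those called lower then numbered 678 and 507, beside 1125 and 939 with all libraries. Without control library 3 there were 6 against controls, beside 527 of all genes, and without heterozygote library 2 there were 8 against heterozygotes, beside 543. Without homozygote library 1 there were 18 against controls, beside 981 of all genes. In that fit *Col3a1*, *Col5a1*, *Col5a2*, *Col23a1*, *Fbln1*, *Lamb2* and *Bgn* were added. Leaving out another library brought in *Hapln1*, *Eln*, *Col4a5*, *Col9a1*, *Col11a1* or *Lama4* against controls. Against heterozygotes, leaving out a library brought in *Has2*, *Lamc1*, *Eln*, *Col3a1*, *Col11a1*, *Col27a1*, *Col4a6*, *Col23a1* or *Bgn*, all lower. *Vcan*, *Col2a1* and *Dcn* against controls, and *Col2a1*, *Lama2*, *Col13a1* and *Dcn* against heterozygotes, stayed called under each alternative run, including each library left out in turn. Taking out the length trend ended the calls of *Nid1*, *Fbn2* and *Hspg2* against controls, where the fold changes became -0.15, -0.23 and -0.31 (adjusted p from 0.0909 to 0.133). It also ended those of *Lama4*, *Col5a2*, *Lamb2* and *Col22a1* against heterozygotes, at fold changes of -0.36, -0.31, -0.43 and -0.57 (adjusted p from 0.0534 to 0.0720). limma without its mean-variance trend called 4 genes lower against controls, including *Vcan*, *Col2a1* and *Col22a1*, and 5 against heterozygotes, including *Col2a1*, *Col22a1*, *Lama2* and *Col13a1*. Over all 14011 genes it called 612 and 522 lower. A fit of only the 2 groups compared ended the calls of *Nid1* against controls and of *Lamb2* and *Col22a1* against heterozygotes, and it added *Eln* (-0.87, adjusted p = 0.0102) and *Col5a2* (-0.28, 0.0266) against controls.

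Compared per exonic length, fibronectin and the secreted glycoprotein SPARC gave the most abundant matrix RNAs in control hearts. *Fn1* stood at 264 and *Sparc* at 233 normalized units per kb, followed by *Col4a1* at 117, *Hapln1* at 115, *Col18a1* at 77.4, *Vcan* at 70.9, *Col4a2* at 63.1 and *Col3a1* at 61.7. Within controls the ranges of *Col4a1* and *Hapln1* overlapped and their order changed between libraries, as it did for *Col4a2* and *Col3a1*. The ranges of *Col18a1* and *Vcan* and of *Vcan* and *Col4a2* overlapped too, but the first of each pair was the higher in all 3 control libraries. In homozygotes the means were 252 for *Sparc* and 233 for *Fn1*, with overlapping libraries, and *Vcan* stood at 45.1 per kb. At the low end, 11 of the 64, among them *Has3*, *Col7a1*, *Fbln7* and *Col11a2*, had mean values under 5 in all groups.

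**Figure D3:**
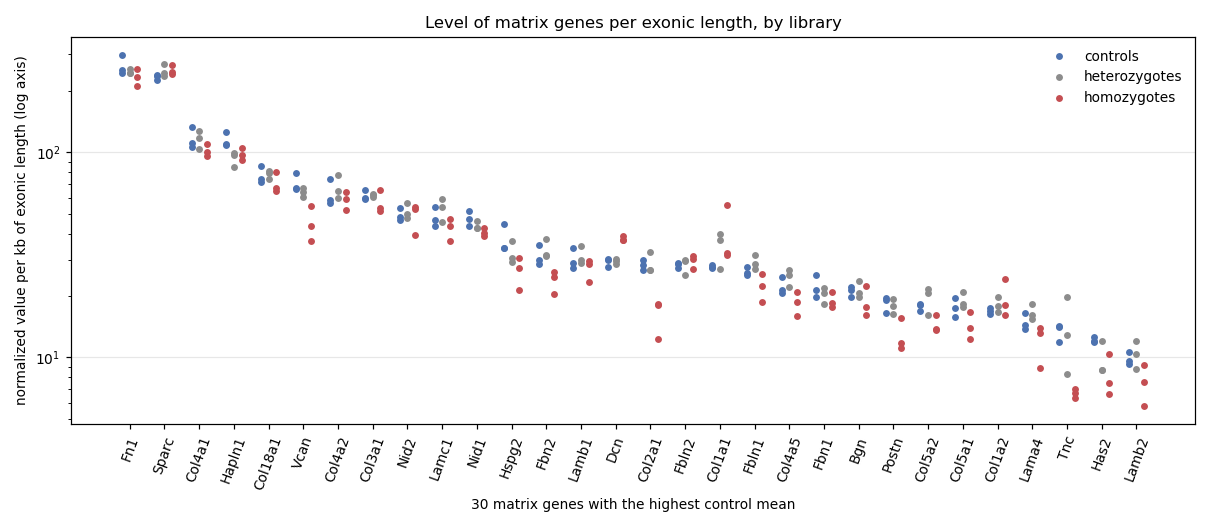
Normalized value per kb of exonic length on a log axis for the 30 matrix genes with the highest control mean, 1 point per library. *Fn1* and *Sparc* are the most abundant in all 3 genotypes, and the homozygote points of *Vcan*, *Col2a1*, *Tnc* and *Postn* lie below those of the other genotypes while those of *Dcn* lie above.

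Of the hyaluronan matrix genes, versican and hyaluronan synthase 2 were lower in homozygotes, and link protein 1 lay close to the threshold against controls. *Vcan* (ENSMUSG00000021614, chr13:89794915-89882117, minus strand, NCBIM37), the versican gene, measured 963, 964 and 1151 in controls, 922, 973 and 881 in heterozygotes and 630.3, 793 and 532 in homozygotes. Every homozygote lay below every other library, and homozygote library 2 was the highest of its group. The log2 fold change was -0.67 ± 0.12 (SE) against controls (adjusted p = 0.00226) and -0.52 ± 0.12 against heterozygotes (adjusted p = 0.0104), so homozygotes held 63.5% and 70.4% of the mean of those groups. In what follows a fold change is on the log2 scale of value plus 0.5, with its SE after the ± sign.

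*Has2* (chr15:56497182-56526094), the main hyaluronan synthase of the embryonic heart, measured 51.2, 50.6 and 53.6 in controls, 50.9, 37.0 and 37.0 in heterozygotes and 28, 44.1 and 31.9 in homozygotes. Controls were tightly grouped and above all homozygotes, while heterozygotes spanned the gap and overlapped the homozygotes. Its fold change of -0.60 ± 0.15 against controls was called (adjusted p = 0.0164) and that of -0.27 ± 0.15 against heterozygotes was not (0.261), except without homozygote library 2 (-0.45, adjusted p = 0.0402). The call was lost without control library 3, homozygote library 1 or homozygote library 3 (adjusted p = 0.0635, 0.0624 and 0.0589). An antisense gene covers 4.3% of its exonic length, and whether the counting used strand was not stated. *Hapln1*, which encodes the link protein that ties versican to hyaluronan, measured 551, 557 and 632 in controls, 490.0, 429.6 and 503 in heterozygotes and 492, 530.0 and 462 in homozygotes. Both genotypes with Cre lay below the controls and overlapped each other (fold change -0.23 ± 0.08 against controls, adjusted p = 0.0626; 0.06 ± 0.08 against heterozygotes, 0.648). Against controls it was called lower under quantile normalization (0.0267), without heterozygote library 2 (0.0490) and without homozygote library 2 (0.0483). *Hapln3* and *Has3* had values under 6 in every library and were not called.

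Versican and link protein 1 are also neighbors, lying tail to tail on chr13 with 43477 bp and no annotated gene between them. Their ratio within each library, log2 of *Hapln1* over *Vcan*, was -0.80, -0.79 and -0.86 in controls, -0.91, -1.18 and -0.81 in heterozygotes and -0.36, -0.58 and -0.20 in homozygotes. The ratio was higher in each homozygote than in any other library. It differed by 0.44 from controls and by 0.59 from heterozygotes, both at an exact permutation p of 0.1 (two-sided), which is the smallest that 3 libraries against 3 can give. *Vcan* is the longer gene (14467 against 5055 bp), and with the length trend taken out the changes were 0.27 and 0.49.

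Upstream sequences from RefSeq (GRCm38.p6, the 250 bases before a listed start site) are shown for *Vcan* and for the 2 matricellular genes that fell. These 3 are among the genes called against both other genotypes, and the others so called, such as *Col13a1*, are not shown. Capitals mark the letters TATAAA, searched on both strands together with the core of the CTCF binding motif.
*Vcan*, chr13:89742513-89742762, minus strand: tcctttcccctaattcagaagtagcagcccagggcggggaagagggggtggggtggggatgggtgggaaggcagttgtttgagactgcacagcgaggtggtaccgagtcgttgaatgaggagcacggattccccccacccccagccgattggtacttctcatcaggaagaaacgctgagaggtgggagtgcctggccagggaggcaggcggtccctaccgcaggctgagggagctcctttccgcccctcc
*Tnc*, first of 2 listed starts, chr4:64047016-64047265, minus strand: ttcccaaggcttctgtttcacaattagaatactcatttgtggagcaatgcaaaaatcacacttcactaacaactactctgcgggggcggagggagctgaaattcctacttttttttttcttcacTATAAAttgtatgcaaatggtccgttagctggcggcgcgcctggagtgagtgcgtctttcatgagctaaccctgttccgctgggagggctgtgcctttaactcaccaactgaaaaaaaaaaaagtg
*Postn*, second of 2 listed starts, chr3:54360857-54361106, plus strand: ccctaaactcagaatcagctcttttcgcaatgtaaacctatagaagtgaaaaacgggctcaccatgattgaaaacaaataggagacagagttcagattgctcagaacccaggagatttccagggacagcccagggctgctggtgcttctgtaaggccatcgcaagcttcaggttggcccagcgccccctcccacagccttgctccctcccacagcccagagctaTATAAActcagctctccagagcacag
TATAAA began 126 bases before the first listed *Tnc* start and 26 bases before the second *Postn* start, and neither motif was found in the *Vcan* window. The second *Tnc* window held the same TATAAA, 205 bases before its start, and the window of the first *Postn* start held none. RefSeq windows were at hand for 43 of the 64 genes, 51 windows in all. TATAAA was in 7 of these (13.7%), in *Col11a2*, *Col13a1*, *Col3a1*, *Hapln3*, *Postn* and *Tnc*, beside 12.4% of all 32851 windows. The CTCF core was in 1 of 51 (1.96%), upstream of *Fbln2*, beside 2.07% of all windows. A match of letters is a description of the window and not of a bound site.

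Tenascin C and periostin, matricellular proteins that cells secrete where tissue is being remodeled, were both lower in homozygotes, whereas fibronectin and *Sparc* were not called. *Tnc* (ENSMUSG00000028364, chr4:63620819-63681760, minus strand, NCBIM37) measured 107, 106 and 89.8 in controls, 96.8, 149 and 62.4 in heterozygotes and 52.8, 47.5 and 50.4 in homozygotes. Homozygotes were close together and below all other libraries, while heterozygotes were widely spread. The fold change was -0.99 ± 0.21 against controls (adjusted p = 0.00717), the largest fall among the 64 genes in that comparison, and -0.94 ± 0.21 against heterozygotes (adjusted p = 0.0109), so homozygotes held 49.8% of the control mean. *Postn* (ENSMUSG00000027750, chr3:54165031-54194961, plus strand) measured 150.1, 152 and 129 in controls, 140.0, 128 and 151 in heterozygotes and 122, 92.2 and 87.0 in homozygotes. All homozygotes lay below the other libraries, with homozygote library 1 just under the lowest of them. Its fold changes were -0.53 ± 0.11 (adjusted p = 0.00735) and -0.49 ± 0.11 (0.0123), the second of which was lost without heterozygote library 3 (0.0539) or homozygote library 3 (0.0546). In limma without its mean-variance trend the calls of *Tnc* (adjusted p = 0.0546 against controls and 0.0697 against heterozygotes) and *Postn* (0.0527 and 0.0702) were lost.

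*Fn1*, fibronectin, measured 2099, 2023 and 2492 in controls, 2020.2, 2129 and 2040.0 in heterozygotes and 2127, 1951 and 1764 in homozygotes, and the groups overlapped. Its fold change was -0.18 ± 0.09 against controls (adjusted p = 0.211; 95% interval -0.37 to 0.02). *Sparc* had a fold change of 0.11 ± 0.06 (adjusted p = 0.292; 95% interval -0.03 to 0.25), with all homozygotes slightly above all controls.

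**Figure D4:**
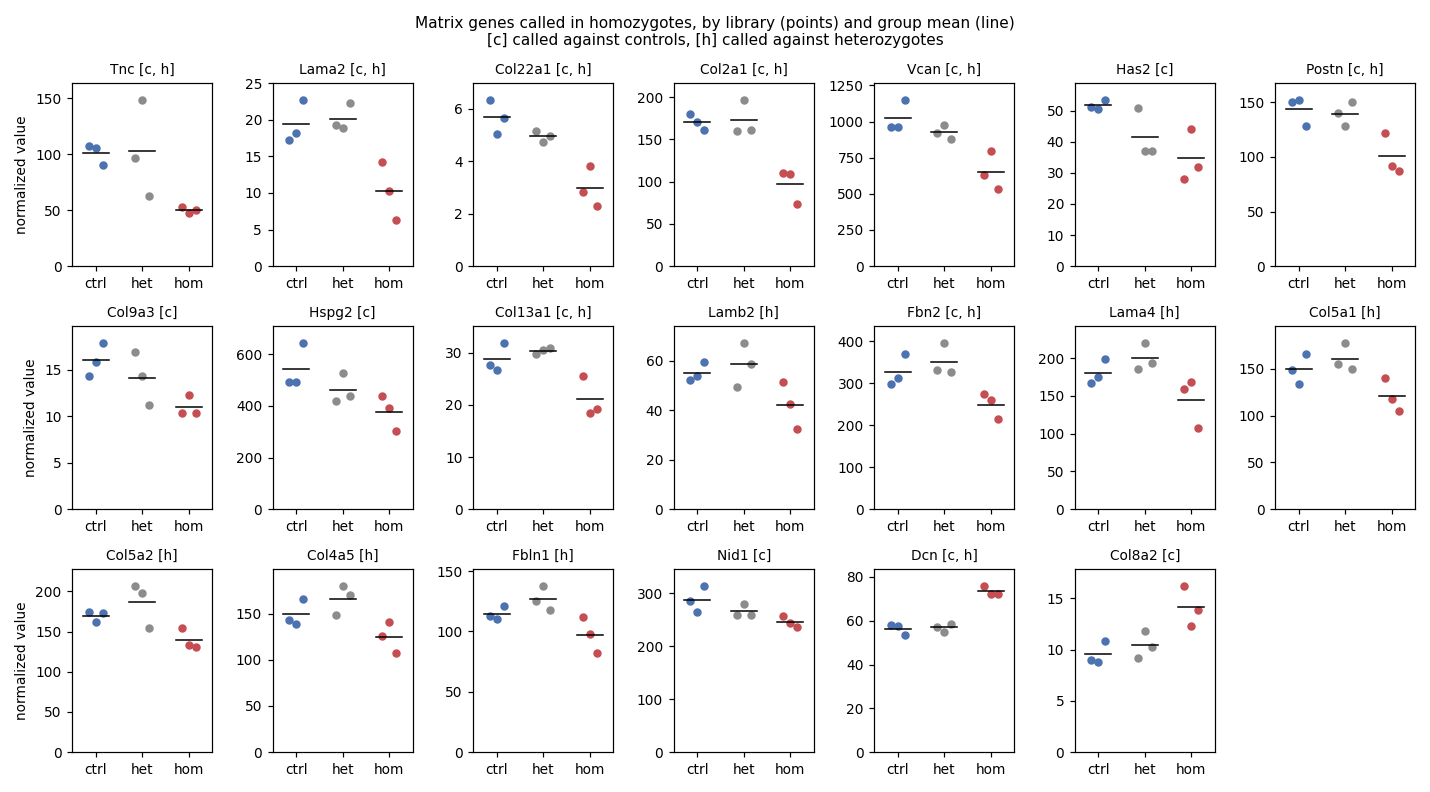
Normalized value of 20 matrix genes called in homozygotes against controls [c] or against heterozygotes [h], 1 point per library with the group mean as a line, ordered by fold change against controls. In 18 genes the homozygote mean is the lowest of the 3 genotypes, and in *Dcn* and *Col8a2* it is the highest.

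Among the fibrillar collagens, which form the tensile fibers of connective tissue, only type II and type V chains were called, each lower in homozygotes. *Col2a1* (ENSMUSG00000022483, chr15:97806033-97835155), the chain of cartilage collagen that is also made in endocardial cushions, measured 180.2, 170.4 and 161 in controls, 160.4, 197 and 162 in heterozygotes and 109.8, 109 and 74.1 in homozygotes. No homozygote came near the other libraries. Its fold changes were -0.82 ± 0.13 against controls and -0.84 ± 0.13 against heterozygotes (adjusted p = 0.00114 and 0.00115), or 57.3% and 56.4% of those means. Of 8 markers of cartilage and the pharyngeal skeleton, *Matn1*, *Runx2*, *Sp7* and *Dlx5* were not in the table, and *Acan* and *Matn3* had mean values below 2 in every group. *Dlx2* was called higher, with a mean of 0.289 in controls and 2.12 in homozygotes (fold change 1.80 ± 0.36, adjusted p = 0.00565). At that control mean no control library can have reached the value of 1 that all genes of the table had in 3 libraries. *Dlx2* thus entered the table through the other groups, and its call is not independent of that filter. *Hand2*, also a gene of the heart itself, had means of 79.3 and 75.8 and made up most of the sum of these markers, which ran from 73.2 to 90.4 in controls and from 74.1 to 84.7 in homozygotes. The part of these markers in the values of *Col2a1* was not tested.

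*Col5a1*, which helps set fibril diameter, measured 149, 134 and 166 in controls, 155, 178 and 149.8 in heterozygotes and 141, 118 and 105 in homozygotes, all of which were below the heterozygotes. Its partner chain *Col5a2* measured 174, 161 and 173 in controls, 207, 198 and 154 in heterozygotes and 155, 133 and 131 in homozygotes, all below the controls. In each gene the homozygotes overlapped the remaining group. Both fell against heterozygotes (-0.41 ± 0.10 and -0.41 ± 0.10, adjusted p = 0.0191 and 0.0153), while the differences from controls (-0.31 ± 0.10 and -0.28 ± 0.10, adjusted p = 0.0617 and 0.0687) did not pass. Both calls were lost without heterozygote library 2 (0.0780 and 0.0597), homozygote library 2 (0.0545 and 0.0520) or homozygote library 3 (0.0828 and 0.0613), and that of *Col5a2* also without heterozygote library 1 (0.0631).

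Type I and type III collagens, the main chains of fibrous tissue, were not called with all libraries in the fit. *Col1a1* measured 185, 181 and 180.0 in controls, 177, 246 and 264 in heterozygotes and 361, 207 and 213 in homozygotes. The controls were nearly equal and below all homozygotes, of which library 1 was far above the other two. The fold change against controls was 0.47 ± 0.18 (adjusted p = 0.0964), or 0.21 without homozygote library 1 (0.321), and that of its partner *Col1a2* 0.18 ± 0.11 (0.327). *Col3a1* measured 505, 497 and 551 in controls, 519, 525 and 506 in heterozygotes and 547, 451 and 435 in homozygotes, with overlap and a fold change of -0.12 ± 0.08 (0.329), which became 0.0021 with the length trend taken out. Without homozygote library 1 *Col3a1* was called lower against controls (-0.22, adjusted p = 0.0345) and against heterozygotes (0.0372). *Col11a1*, *Col11a2* and *Col27a1* were not called by limma with all libraries either. Against heterozygotes *Col11a1* was called lower by edgeR on the recovered reads of all libraries (-0.62, adjusted p = 0.0305), and by limma without heterozygote library 3 (0.00756) or homozygote library 1 (0.0451). *Col27a1* was called there without heterozygote library 3 (0.0166).

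FACIT and transmembrane collagens, which decorate fibrils or span the cell membrane, had 3 of 10 called lower against controls, 2 of 10 against heterozygotes and none higher, with a median of -0.39 against controls. Over all genes 8.03% and 6.7% were called lower. *Col13a1*, a transmembrane collagen, measured 27.6, 26.8 and 31.9 in controls, 29.8, 30.5 and 31.0 in heterozygotes and 25.5, 18.5 and 19.2 in homozygotes, and every homozygote was below every other library. It fell by 0.45 against controls and by 0.53 against heterozygotes on the log2 scale (adjusted p = 0.0212 and 0.0103). The first call was lost without control library 3 (0.10) or without homozygote library 2 or 3 (0.0739 and 0.0806). *Col22a1*, a collagen of tissue junctions, was scarce at 6.34, 5.03 and 5.63 in controls, 5.15, 4.73 and 4.96 in heterozygotes and 2.84, 3.81 and 2.30 in homozygotes, again with no overlap. Its fold changes were -0.84 ± 0.20 (adjusted p = 0.0124) and -0.67 ± 0.20 (0.0401). The first was lost without homozygote library 3 (0.0545), and the second was lost on leaving out any library except homozygote library 2, at adjusted p from 0.0516 to 0.153.

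*Col9a3*, a chain of fibril-bound collagen IX, measured 14.4, 15.8 and 17.9 in controls, 16.9, 14.3 and 11.2 in heterozygotes and 10.3, 12.3 and 10.3 in homozygotes. Homozygotes were below controls and overlapped heterozygotes. Its fold change of -0.53 ± 0.15 against controls was called (adjusted p = 0.0331), and the call was lost without control library 2 or 3 (0.0749 and 0.138) or homozygote library 1 or 3 (0.0836 and 0.101). The neighboring gene *Tcfl5* shares 6.1% of its exonic length. The other collagen IX chains, *Col9a1* and *Col9a2*, had fold changes of -0.56 ± 0.25 and -0.33 ± 0.23 and were not called.

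Of the 8 basement membrane and network collagens, 1 was called higher against controls (7.19% of all genes) and 1 lower against heterozygotes (6.7% of all genes). The heart's main collagen IV chains did not pass: *Col4a1* measured 758, 723 and 908 in controls, 709, 868 and 803 in heterozygotes and 744, 685 and 654 in homozygotes, overlapping throughout, with a fold change of -0.19 ± 0.09 against controls (adjusted p = 0.184; 95% interval -0.39 to 0.01). Under quantile normalization *Col4a1* was called lower (-0.30, adjusted p = 0.0491). *Col4a2*, which is transcribed from the same promoter region in the opposite direction, had a fold change of -0.10 ± 0.11 (0.598). The X-linked chain *Col4a5* measured 143, 139 and 166 in controls, 149, 180.1 and 169.7 in heterozygotes and 126, 141 and 107 in homozygotes. Homozygotes lay below heterozygotes but reached into the range of controls. It was called against heterozygotes (-0.42 ± 0.10, adjusted p = 0.0153) and not against controls (-0.27 ± 0.10, 0.0909), and the call was lost without heterozygote library 2 or 3 (0.0618 and 0.0539) or homozygote library 3 (0.0644).

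*Col8a2*, a short-chain network collagen, was, beside *Dcn*, the matrix gene called higher. It measured 9.02, 8.79 and 10.9 in controls, 9.17, 11.8 and 10.3 in heterozygotes and 16.2, 12.3 and 13.9 in homozygotes, and each homozygote exceeded every other library. The fold change was 0.54 ± 0.15 against controls (adjusted p = 0.0265) and 0.42 ± 0.15 against heterozygotes (0.0759). The call was lost without control library 1 or 2 (0.0765 and 0.0855) or homozygote library 1 or 3 (0.0887 and 0.0681). Its partner chain *Col8a1* had a fold change of -0.25 ± 0.20 (0.445). The 4 beaded filament and anchoring collagens, *Col6a1*, *Col6a2*, *Col6a3* and *Col7a1*, were not called, and *Col6a1* was the steadiest of the 64 genes within groups, at 32.0, 30.5 and 30.2 in controls, 33.7, 34.6 and 32.4 in heterozygotes and 35.1, 33.9 and 32.6 in homozygotes.

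Laminins are trimers of an alpha, a beta and a gamma chain. *Lama2*, the alpha chain of muscle basement membranes, measured 17.2, 18.2 and 22.7 in controls, 19.3, 18.9 and 22.3 in heterozygotes and 14.2, 10.2 and 6.35 in homozygotes. Homozygotes were lower than all others and themselves spread more than 2-fold. Its fold changes were -0.94 ± 0.21 (adjusted p = 0.0102) and -1.0 ± 0.21 (0.00841), and the first was lost without control library 3 (0.0542).

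*Lama4*, the alpha chain of vessel basement membranes, measured 167, 175 and 199 in controls, 186, 220.2 and 193 in heterozygotes and 159, 168 and 108 in homozygotes. Homozygote library 3 was far below the other two, which fell short of the heterozygotes and just overlapped the controls. The beta chain *Lamb2* measured 52.2, 53.8 and 59.6 in controls, 49.6, 67.3 and 58.7 in heterozygotes and 51.4, 42.6 and 32.6 in homozygotes, with homozygotes below controls and overlapping heterozygotes. Against heterozygotes both were called (-0.48 ± 0.13 and -0.48 ± 0.14, adjusted p = 0.0289 and 0.0387), against controls neither (-0.34 ± 0.13 and -0.41 ± 0.14, 0.107 and 0.0694). Both calls were lost without heterozygote library 2 (0.103 and 0.144), heterozygote library 3 (0.0652 and 0.0981) or homozygote library 3 (0.0694 and 0.147), and without the last the fold changes shrank to -0.28 and -0.31. That of *Lamb2* was also lost without control library 2 (0.0529) or homozygote library 2 (0.0737). The more abundant beta and gamma chains *Lamb1* and *Lamc1* had fold changes of -0.14 ± 0.10 and -0.17 ± 0.11 against controls and of -0.21 ± 0.10 and -0.31 ± 0.11 against heterozygotes, and were not called with all libraries. Against heterozygotes *Lamc1* was called under quantile normalization (0.0412), without heterozygote library 1 (0.0298) and without homozygote library 2 (0.0467). *Lama1* and *Lama5*, alpha chains of the early embryo and of mature basement membranes, were not called either.

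The basement membrane linkers perlecan (*Hspg2*) and nidogen 1 (*Nid1*) were called lower against controls, and their differences from heterozygotes (-0.30 ± 0.13 and -0.11 ± 0.07) did not pass (adjusted p = 0.152 and 0.304). *Hspg2* measured 492, 491 and 645 in controls, 421, 529 and 440.5 in heterozygotes and 438, 391 and 305 in homozygotes. Control library 3 was well above the rest, and homozygotes lay below controls but overlapped heterozygotes. The fold change against controls was -0.53 ± 0.13 (adjusted p = 0.0172), and the call was lost without control library 3 (0.0828) or homozygote library 3 (0.0671). *Nid1* measured 285, 264 and 314 in controls, 259, 279.6 and 258 in heterozygotes and 257, 243 and 237 in homozygotes, and every homozygote lay below every other library, though by little. Its fold change of -0.22 ± 0.07 had an adjusted p of 0.0396, and leaving out control library 1 or 3, heterozygote library 3 or homozygote library 2 or 3 ended the call (adjusted p = 0.0813, 0.173, 0.0511, 0.0895 and 0.122). *Nid2* had a fold change of -0.03 ± 0.10 and was not called.

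Elastic fibers are built of elastin on microfibrils of fibrillin, to which fibulins attach, and of these 7 genes 1 was called lower against controls and 2 against heterozygotes, where 8.03% and 6.7% of all genes were. *Fbn2*, the fibrillin of the embryo, measured 298, 313 and 369 in controls, 332, 396 and 327 in heterozygotes and 274, 259.5 and 215 in homozygotes. Homozygotes were below every other library. It fell by 0.39 against controls and by 0.50 against heterozygotes (adjusted p = 0.0216 and 0.00702), and the first call was lost without control library 3 (0.102) or homozygote library 3 (0.0879). *Fbn1* had a fold change of -0.21 ± 0.09 against controls (0.134), and 20.1% of its exonic length overlaps an antisense gene of the table. *Fbln1*, a fibulin of cushion matrix, measured 113, 110.5 and 121 in controls, 125, 138 and 118 in heterozygotes and 112, 97.6 and 81.8 in homozygotes. Homozygotes were below heterozygotes and overlapped controls, and only the first difference was called (-0.39 ± 0.10, adjusted p = 0.0179, against -0.25 ± 0.10, 0.0998). That call was lost without heterozygote library 2 (0.0721) or homozygote library 3 (0.0670). *Eln*, the elastin gene, measured 12.6, 13.6 and 10.3 in controls, 15.2, 15.6 and 4.73 in heterozygotes and 8.29, 5.67 and 5.54 in homozygotes, with homozygotes below controls and heterozygote library 3 below them all. Its fold change of -0.87 ± 0.34 against controls came with a wide error and was not called (0.0979), though it was without heterozygote library 3 (0.00588). *Fbln2*, *Fbln5* and *Fbln7* were not called.

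Decorin, a small leucine-rich proteoglycan that binds collagen fibrils, rose. *Dcn* (ENSMUSG00000019929, chr10:96942245-96980777, plus strand, NCBIM37) measured 58.3, 57.6 and 53.3 in controls, 57.2, 55.1 and 58.7 in heterozygotes and 76.0, 72.4 and 72.1 in homozygotes. Replicates were close in each group, and all homozygotes were above all other libraries. Its fold changes were 0.38 ± 0.06 against controls (adjusted p = 0.00190) and 0.36 ± 0.06 against heterozygotes (0.00286), or 130.3% and 129% of those means. *Dcn* is the shortest of the 64 genes at 1937 bp, and with the length trend taken out it was still called. *Lum*, its neighbor on chr10, was the most variable of the 64 within groups, at 14.8, 8.08 and 7.38 in controls, 8.09, 8.89 and 22.7 in heterozygotes and 18.7, 9.73 and 5.54 in homozygotes, and *Bgn* had a fold change of -0.18 ± 0.11 (0.293). Neither was called.

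Among the 64 genes 6 neighboring pairs with no annotated gene between them are given, and each was compared by its ratio within a library. Apart from *Hapln1* and *Vcan*, the ratio of *Col3a1* to *Col5a2* was also higher in all homozygotes than in all other libraries, by 0.16 against controls and 0.29 against heterozygotes (exact permutation p = 0.1 for each). The ratio of *Col4a1* to *Col4a2*, whose start sites are 21 bp apart, changed by -0.09 and 0.0020 against controls and heterozygotes (exact permutation p = 0.2 and 0.9). That of *Col4a6* to *Col4a5*, with starts 1309 bp apart, changed by 0.05 and 0.09 (exact permutation p = 0.8 and 0.5). *Col6a2* over *Col6a1* and *Dcn* over *Lum* changed by -0.08 and 0.31 against controls (exact permutation p = 0.4 for each). Against heterozygotes the first changed by -0.12, with every homozygote below every heterozygote (exact permutation p = 0.1), and the second by 0.58 (exact permutation p = 0.4). With the length trend taken out, the changes of *Col6a2* over *Col6a1* were 0.02 and -0.06. With 12 ratios compared and 0.1 the smallest p, none could pass an adjusted threshold of 0.05.

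**Figure D5:**
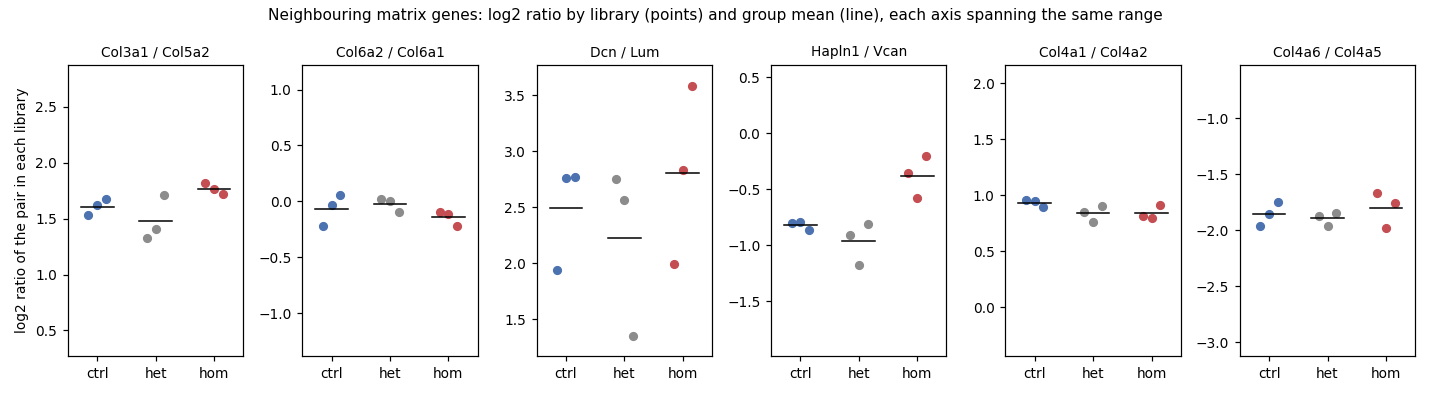
Log2 ratio of the values of 6 neighboring matrix gene pairs in each library, with the group mean as a line; every panel spans the same range of log2 units. The homozygote points of *Hapln1* over *Vcan* lie above those of both other genotypes, and those of *Col4a1* over *Col4a2* and *Col4a6* over *Col4a5* overlap them.

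In heterozygotes, with 1 floxed allele recombined, no matrix gene was called against controls, where 0.0928% of all genes were higher and 0.05% lower. The count at an unadjusted p under 0.05 was 3, and edgeR's test on recovered reads also called 0. The median log2 fold change was 0.04, with 26 of 64 below 0. All heterozygotes lay above all controls in 3 genes and below them in 3, where 7.41% and 6.93% of all genes did so. The values farthest from 0 were 0.69 for *Fbln5* and -0.55 for *Col14a1*, both of low level.

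Genes that build, cut and sense the matrix were taken from 4 further lists. In homozygotes, of 25 genes for collagen folding and crosslinking, 2 were higher and 2 lower against controls, and 1 and 2 against heterozygotes. These counts are near the shares over all genes, of which 7.19% were higher and 8.03% lower against controls and 6.87% and 6.7% against heterozygotes. *Lox*, lysyl oxidase, which crosslinks collagen and elastin, had a mean of 8.47 in controls, 7.19 in heterozygotes and 15 in homozygotes (fold change 0.80 ± 0.17, adjusted p = 0.00739). *Loxl1* rose by 0.32 ± 0.09, whereas *Loxl2* (-0.27 ± 0.07) and the prolyl hydroxylase gene *Leprel1* (-0.50 ± 0.12) fell. *Loxl1* and *Loxl2* were called against controls only, and of 18 alternatives, 8 ended the call of *Loxl1* and 6 that of *Loxl2*. Of 25 proteases and inhibitors, 1 was higher and 6 lower in each comparison. *Adamts19* fell from a mean of 11.4 in controls to 3.70 (-1.52 ± 0.17, adjusted p = 0.000103), the membrane protease gene *Mmp15* from 132 to 64.3 (-1.04 ± 0.08, adjusted p = 4.96e-06) and *Adamts4* by 0.83, and *Mmp11* rose by 0.50 ± 0.15 (adjusted p = 0.0329). *Mmp11* was not called against heterozygotes (0.283), where the higher gene was *Adamts5* (0.75, adjusted p = 0.0425), a call that 7 of 18 alternatives ended. The call of *Mmp11* against controls was lost in 8 of 18 alternatives. Among them were the fit with the length trend taken out and 5 fits with a library left out. *Adamts4* was not called against heterozygotes either, and its call against controls was lost in 6 of 17 alternatives.

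Of 11 genes for hyaluronan supply, turnover and reception, 3 were lower and none was higher in either comparison. The hyaluronan receptor gene *Cd44* measured 39.7 on average in controls and 22.3 in homozygotes (-0.85 ± 0.14, adjusted p = 0.00194), *Tmem2* fell by 0.41 and *Ugdh*, whose enzyme makes a hyaluronan precursor, by 0.18, a call that 14 of 18 alternatives ended. Of 30 matrix receptor genes, 6 were lower against controls and 5 against heterozygotes, with none higher. Over all genes 8.03% and 6.7% were lower in these comparisons and 7.19% and 6.87% higher. The largest of these falls against controls were in the integrin genes *Itgb8* (-0.69 ± 0.12), *Itga5* (-0.54 ± 0.08), which pairs with beta 1 to bind fibronectin, and *Itga1* (-0.54 ± 0.09), which does so to bind collagen. *Itga5* was also called against heterozygotes (-0.51, adjusted p = 0.00200), whereas *Itgb8* (-0.35, 0.0722) and *Itga1* (-0.23, 0.117) were not.

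Of all genes 7.19% were called higher and 8.03% lower against controls, and 6.87% and 6.7% against heterozygotes, and marker lists of cell types are read beside these shares. Of 10 erythroid markers all 10 were called higher in homozygotes in both comparisons. Over 18 alternatives from 1 to 10 were called against controls and from 6 to 10 against heterozygotes, and with the length trend taken out 7 and 10 were. Their sums ran from 32590 to 47295 in controls and from 57934 to 76577 in homozygotes, and homozygote library 3, where matrix genes were lowest, had the highest sum. Epicardial markers were higher in 6 of 10 against controls and 5 of 10 against heterozygotes (sums 782 to 796 in controls, 977 to 1069 in homozygotes). Cushion mesenchyme markers were lower in 2 of 10 against controls, *Pdgfra* and *Tbx20*, and in 1 against heterozygotes (sums 3403 to 3589 in controls and 2889 to 3579 in homozygotes). Cardiomyocyte markers were lower in 3 of 10 against controls and 5 of 10 against heterozygotes. Their sums ran from 14534 to 17325 in controls, from 16709 to 19875 in heterozygotes and from 12841 to 16127 in homozygotes. Smooth muscle markers were lower in 3 of 8 in each comparison. Of 10 endothelial and endocardial markers 2 were lower and 1 higher against controls, and 1 was lower against heterozygotes. In each comparison 1 of 7 macrophage markers was lower, none of 8 visceral endoderm and liver markers was called, and of 4 cartilage and 5 neural markers 1 each was higher. Against controls the macrophage (*Lyz2*), cartilage (*Dlx2*) and neural (*Tubb3*) calls held in each alternative that gave a value, but against heterozygotes 13 of 18, 7 of 17 and 11 of 18 alternatives ended them. All alternatives used the same filtered table, which *Dlx2* entered without a control library, so they cannot test its call apart from that filter. Over the alternatives the cardiomyocyte markers called lower numbered 1 to 4 against controls and 1 to 6 against heterozygotes, those of smooth muscle 1 to 5 and 2 to 5, of endothelium and endocardium 1 to 7 and 0 to 4 and of cushion mesenchyme 1 to 4 and 0 to 2, and the epicardial markers called higher 4 to 7 and 4 to 6. Of the visceral endoderm and liver markers 0 to 2 were called lower against controls and 0 to 2 higher against heterozygotes. The part of these shifts in the values of the matrix genes was not tested.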

How the data were processed

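Each of the 9 RNA-seq libraries came from 6 pooled mouse embryo hearts (E10.5), and each genotype had 3 libraries. Per the labels, the submitters' processing notes name CASAVA 1.8, cutadapt 1.6.1, RSEM 1.20, Bowtie2 0.12.7, limma and the build NCBIM37. The deposited file holds a normalized signal for each gene and library, which the authors had already scaled between libraries. Each value equaled a whole number of reads plus 0.5, times a constant of its library, in 100% of values (tolerance 1e-06 reads). Control and heterozygote columns were assigned through the group averages of the study's own table, because the column names read differently from the sample titles and their numbers match no sample.

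Values were analyzed as log2(value + 0.5), and fold changes on this scale understate the change of low genes. limma 3.58.1 in R 4.3.3 fitted the 3 groups in one model with a mean-variance trend, and p-values were adjusted by Benjamini-Hochberg over all 14011 genes. Nothing in the labels says how the pools relate between genotypes. Each p-value sets a difference between groups against the spread between pools, not between single hearts. Replicates differed by more than sampling noise. GENCODE M1 (NCBIM37) gave positions and exonic lengths for 13987 genes. The members, classes, further gene lists and markers were chosen with earlier results of these data known. Genes given library by library were those called in either comparison of homozygotes, and *Hapln1*, *Fn1*, *Col1a1*, *Col3a1* and *Col4a1*; from the further lists, the called genes with the 3 largest rises and falls were named. *Eln*, *Col6a1* and *Lum* were added for their values. Alternatives were pseudocounts of 0.1 and 2, a mean value of at least 5, quantile normalization, removal of the length trend by loess (span 0.5) in each library, limma without the trend, edgeR 4.0.16 on recovered reads, a fit of 2 groups, a replicate block and each library left out in turn. The steps were tested on simulated data. One matrix gene is not reported here by name, though the counts include it. Tables and figures were made with Python 3.11.15.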

Additional observations from a re-analysis of the deposited data

How the results depend on the processing

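The median fold change of the 64 matrix genes kept its sign in both comparisons of homozygotes under all alternatives. It ran from -0.30 to -0.15 against controls and from -0.26 to -0.12 against heterozygotes when each library was left out in turn. With a library left out, the genes called lower numbered from 6 to 18 against controls and from 7 to 18 against heterozygotes, and those called higher from 1 to 2 and 1. Over all genes those called lower then ran from 527 to 1087 and from 507 to 905. Those called higher ran from 522 to 997 and from 516 to 954. Between heterozygotes and controls 0 genes were called throughout, and the median ran from -0.02 to 0.10. Without limma's mean-variance trend, 4 genes were called lower against controls and 5 against heterozygotes, beside 612 and 522 of all 14011 genes. The cause was not tested. edgeR on the recovered reads called 13 lower and 2 higher against controls and 16 and 1 against heterozygotes, and over all 14011 genes 1053 higher and 1159 lower against controls and 977 and 926 against heterozygotes. Removing the length trend turned *Col3a1* against controls from -0.12 to 0.0021, neither of which was called.

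A replicate block by column number gave 14 genes lower and 2 higher against controls and 13 and 1 against heterozygotes. Over all 14011 genes it gave 945 lower and 811 higher against controls and 754 and 799 against heterozygotes. Same-numbered libraries did not deviate together (correlations from -0.04 to 0.09), and the numbers of control and heterozygote columns match no labeled sample, so the pairing is one of numbers only. Depth limits the genes of low level: 1 read was worth up to 0.231 units, so genes with values under 5 rest on few reads in the shallowest libraries.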
